A study of Mus musculus with 16 samples.

Results

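Dextran sulfate sodium (DSS) colitis was set against untreated colon on 10 of the 16 bead arrays of this study: 6 arrays of colon from mice given DSS and 4 from untreated controls. The arrays were taken by the treatment in their sample titles, and every array with either treatment was used. The RNA came from whole colon of male C57Bl/6J mice in both groups, with no genetic change named. The other 6 arrays, from mice given DSS together with methylthioadenosine, entered only the shared estimate of the spread. Illumina bead arrays read each gene through 1 or more probes. Values below are log2 of the authors' normalized intensities, with the brightest probe taken for each gene, and they cannot be compared between genes. The dose and duration of DSS, the ages of the mice and whether each sample was a separate animal are not stated in the labels. Whole colon holds mucosa, muscle, vessels, nerves and attached fat, so fewer cells of a type and less RNA per cell cannot be told apart in any value below.

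DSS is a sulfated polysaccharide that damages the colon lining, after which gut bacteria reach the tissue beneath. Resident cells then release chemokines that draw in neutrophils and monocytes, stromal cells remodel the matrix, and the epithelium closes the wound by spreading and dividing. Colonocytes normally burn butyrate in their mitochondria and carry many enzymes that detoxify compounds from the gut contents.

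A gene was called when the adjusted p of the limma fit, by Benjamini-Hochberg over all 9770 features, was under 0.05. It was termed level when the 95% confidence interval of its difference lay wholly within 0.5 log2 units of 0. The colitis arrays were higher for 848 features (8.68% of those tested) and lower for 575 (5.89%), so 14.6% were called, while 4783 (49.0%) were level. The median difference over all features was -0.04, and the middle 80% of features lay between -0.44 and 0.50. Large changes among the features kept went mostly one way: 297 features (3.04%) rose by more than 1 log2 unit and 49 (0.502%) fell by more than 1. The intensity filter passes more easily a gene that is high with DSS, and its part in this imbalance was not tested. Every DSS array lay above every control for 877 features (8.98%) and below for 673 (6.89%). Of the 1423 calls, 659 held in each of the 10 fits that left out 1 of these arrays and kept the gene, and such calls are termed stable below. The counts for gene families below are to be read against these shares.

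Correlations between arrays over all features were 0.955 to 0.991 within the controls, 0.932 to 0.984 within the DSS group and 0.899 to 0.965 between the groups. The first principal component held 45.9% of the variance and parted all 6 DSS arrays (7.67 to 35.8) from all 4 controls (-32.0 to -24.6). The markers of intestinal epithelium were present on every array: the epithelial keratin Krt8 read 14.58 to 15.12 over the 10 arrays, and the intestinal transcription factor Cdx2 read 11.47 to 13.36. Some arrays stood apart within their group. DSS replicates 2 and 4 were low in respiratory and ribosomal protein genes, as described with those families. Adipocyte markers, averaged over 9 measured genes and set against the control mean, spread over the controls themselves at 1.02, 0.11, -0.14 and -0.99. Hoxd10, a homeobox gene whose level changes along the colon, ran from 7.35 on DSS replicate 2 to 10.89 on DSS replicate 4, with controls from 8.93 to 10.89. The part of such differences in the results was not tested. For 10 of the genes given with values, Adamts4, Ccl7, Clec4d, Cxcl5, Hdc, Hgf, Inhba, Inhbb, Nlrc5 and Osm, every control array read below 6.81, the median over all probes. No detection values were used, so these probes are not shown to be above background on the controls. The genes passed the filter through the other arrays, and their differences can be read only as lower bounds. Others, such as Gbp5, Epgn, Nrg1 and Selp, read below that median on part of the controls, and Lgr5 did so on most DSS arrays. The size of their differences is limited in the same way.

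The widest view is of 152 gene families and pathways, of which 145 had at least 4 members past the intensity filter. Among those 145, the called members all rose in 71 lists and all fell in 20, while 39 held calls in both directions and 15 no call. These counts go by called members alone, however few, and not by the list as a whole. Together the lists named 2881 of the measured genes and 554 of the called ones, and 777 called genes with a name were in no list.

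**Figure D1:**
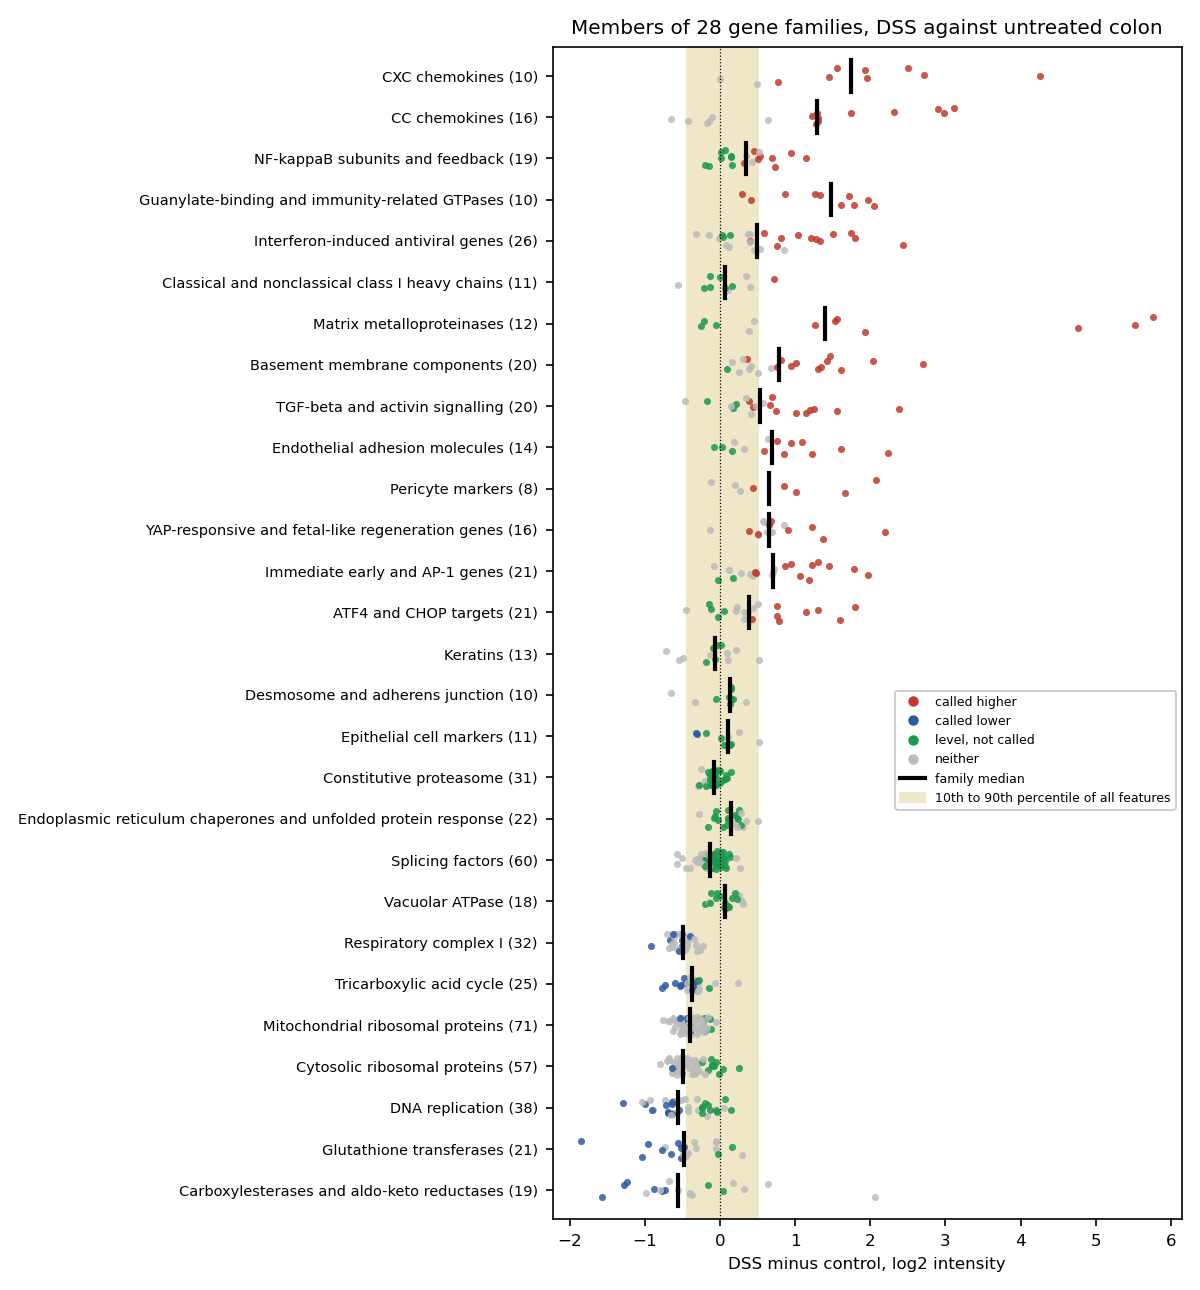
Each point is 1 gene of the family named on the left (number of measured members in brackets), placed at its log2 difference between the means of 6 DSS and 4 control arrays; red points were called higher, blue points called lower, green points were level and not called, grey points neither, and the black bar is the family median. The medians of the chemokine and guanylate-binding families lie to the right of the shaded range that holds 80% of all features, proteasome, splicing and vacuolar ATPase members lie close to 0, and complex I and the mitochondrial ribosomal proteins lie wholly below 0.

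Chemokines, small secreted proteins that attract leukocytes, rose broadly. Of 10 measured CXC chemokines (of 15 on the array), 8 rose, 6 of them stably, and of 16 measured CC chemokines (of 23) 10 rose, 6 stably. The CC count was 6 without DSS replicate 3 or 5 or control replicate 1, 2 or 3. Ccl21a, Ccl21b and Ccl21c are near-identical copies whose probes may read one another, so they are best counted as 1 gene. Ccl7, a monocyte attractant, read 6.13, 6.65, 6.43 and 6.47 on the controls and 9.04 to 9.86, median 9.58, with DSS, a difference of 3.11 ± 0.30 (SE, limma adjusted p = 1.36e-05). Cxcl5, a neutrophil attractant made by epithelium, read 5.73, 5.78, 5.78 and 5.78 on the controls and 7.05 to 8.73, median 7.69, with DSS (1.96 ± 0.29, adjusted p = 4.73e-04). Every DSS array lay above every control for both genes. Cxcl16, a membrane-bound chemokine that also acts as a scavenger receptor, rose by 1.45 ± 0.23 and Ccl9 by 1.29 ± 0.23. Among the receptors, 2 of 8 rose, and neither is a conventional signalling receptor: Ackr1, which carries chemokines across venules (1.27 ± 0.28), and Ccrl2, which binds without signalling (0.33 ± 0.09, a call lost without DSS replicate 2 or 4 or control replicate 1, 2 or 3 at an adjusted p of 0.0553 to 0.0996).

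The promoters of the chemokine genes are shown because part of them holds the letters of a kappaB site, the kind of element that NF-kappaB proteins bind. The stretches, from RefSeq on GRCm38.p6, lie at chr5:90891140-90891218 (+ strand) for Cxcl1, chr5:90903768-90903846 (+ strand) for Cxcl2 and chr12:55492782-55492860 (- strand) for Nfkbia, an inhibitor of NF-kappaB. Capitals mark the match to GGNNTTTCC, and all 3 sequences run 5′ to 3′ on the gene's strand.
Cxcl1: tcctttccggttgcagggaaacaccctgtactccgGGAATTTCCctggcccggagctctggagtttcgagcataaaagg
Cxcl2: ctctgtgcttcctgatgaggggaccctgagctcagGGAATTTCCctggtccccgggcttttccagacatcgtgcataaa
Nfkbia: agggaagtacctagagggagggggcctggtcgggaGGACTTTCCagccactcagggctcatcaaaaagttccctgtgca
The Cxcl1 and Cxcl2 matches carry the same letters, and all 3 matches lie on the strand of their gene. The matches end 61, 87 and 169 bases before the annotated start. Within 250 bases before to 50 bases after the start, on either strand, the letters were present in 11 of 22 genes (50%) that rose in the CXC, CC, NF-kappaB and acute-phase lists and had a promoter in the table, out of 33 such genes. They were present in 6.62% of all 27025 genes and 7.36% of measured ones. Among the matches, the related genes Cxcl1 and Cxcl2 lie near each other on chromosome 5, as do Cxcl9 and Cxcl10. The 22 promoters are therefore not all independent of each other. These are matches of letters and not tested binding sites.

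In the interleukin 6 family, whose members signal through the shared receptor chain gp130, both ligands and receptors rose. Of 7 measured members (of 15), 4 rose, all stably, and 1 fell. Osm (oncostatin M) read 6.17, 6.05, 6.23 and 6.37 on the controls and 7.43 to 8.89, median 8.40, with DSS, and its receptor Osmr read 7.58, 7.92, 7.39 and 7.93 on the controls and 9.39 to 9.83, median 9.66, with DSS. Neither overlapped between the groups, with differences of 2.03 ± 0.26 and 1.92 ± 0.24. Il6st, which encodes gp130 itself, rose by 1.05 ± 0.21, and Ctf1 (cardiotrophin 1) fell (-0.73 ± 0.15). In the interleukin 1 family all 5 measured members were above 0 and 3 were called. Il33, an alarmin stored in the nucleus of barrier and stromal cells, read 7.27, 7.73, 7.59 and 7.72 on the controls and 8.90 to 10.23, median 9.88, with DSS (2.20 ± 0.31, adjusted p = 3.54e-04). By contrast the interleukin 10, 17 and 22 axes held 1 call (0 without DSS replicate 2, 3, 4 or 5 or control replicate 1, 2, 3 or 4) among 8 measured members and 5 level ones; 14 of their 22 genes were below the filter. Il15, a growth factor of intraepithelial lymphocytes, fell (-0.79 ± 0.15).

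Inside the cell a few members of each signalling family rose. Of 19 measured JAK, STAT and SOCS genes, 4 rose, all stably, and 11 were level. Socs3, the feedback inhibitor of gp130 signalling, read 8.39, 8.72, 8.20 and 8.26 on the controls and 11.58 to 12.27, median 11.92, with DSS. The lowest DSS array lay far above the highest control, and the difference was 3.53 ± 0.29 (adjusted p = 3.91e-06). Stat3, the factor gp130 acts through, rose by 1.11 ± 0.13, Stat2 of the interferon pathway by 0.74 ± 0.11 and the lymphoid kinase Jak3 by 0.60 ± 0.10. For NF-kappaB, 8 of 19 subunits and feedback genes rose, 6 stably, and 8 were level. They included inhibitory IkappaB-type members, Nfkbiz (1.14 ± 0.19) and Nfkbie (0.73 ± 0.15), beside the subunit Rela (0.50 ± 0.11) and the kinase Map3k8 (0.94 ± 0.17). Of the Toll-like receptors and their adaptors 6 of 16 rose, 3 without DSS replicate 2 or 4 or control replicate 1, 2 or 3. The largest was Irak3 (0.80 ± 0.13), an inhibitor of the pathway, followed by the adaptor Myd88 (0.57 ± 0.11).

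Some genes of programmed cell death rose. Among 17 measured caspase and inflammasome genes (of 33), 6 rose, 5 stably, and none fell. Ripk3, the kinase that starts necroptosis, read 8.30, 7.82, 7.82 and 7.59 on the controls and 8.82 to 9.49, median 9.22, with DSS (1.28 ± 0.17, adjusted p = 1.91e-04), with no overlap. Casp4, a sensor of bacterial lipopolysaccharide also known as caspase 11, rose by 1.16 ± 0.21 and Casp8 by 0.78 ± 0.14. Of 16 TNF receptors 7 rose and none fell, 4 without DSS replicate 4 or control replicate 1 or 3: the death receptor Fas rose by 0.68 ± 0.09, Tnfrsf1a by 0.86 ± 0.17 and the decoy receptor Tnfrsf11b by 1.15 ± 0.23. Apaf1, the scaffold of the apoptosome, rose by 0.71 ± 0.09 and the p53 target Bbc3 fell (-0.62 ± 0.15), while 16 of 31 p53 targets and apoptosis regulators were level.

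Both families of myeloid surface receptors held calls in 1 direction only. Of 10 measured C-type lectin receptors 5 rose, among them Clec4d (1.79 ± 0.22) and the fungal glucan receptor Clec7a (1.71 ± 0.30). Of 9 Fc receptors 5 rose, 2 to 3 without DSS replicate 1, 2, 3 or 5 or control replicate 1, 2, 3 or 4; Fcgr4 rose by 2.10 ± 0.38 and the inhibitory Fcgr2b by 1.998 ± 0.39. Of 10 measured neutrophil markers, a list that also holds Clec4d, 7 rose. The mean of the list per array was 1.03 to 1.93 above the control mean with DSS against -0.16 to 0.14 on the controls. Of 13 monocyte and macrophage markers 2 rose (1 without DSS replicate 1, 2, 3 or 5 or control replicate 1, 2, 3 or 4), with a median of 0.86. None of the 6 T cell or 5 B cell markers measured was called, and none was level, so their change was not resolved. Hdc, which makes histamine and was named after its value was seen, read 6.39, 6.77, 6.45 and 6.54 on the controls and 8.24 to 9.76, median 9.01, with DSS (2.40 ± 0.31). It was 1 of only 2 measured genes of a joint list of mast cell and eosinophil markers.

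Complement and clotting genes also rose. Of 14 measured complement genes 5 rose and 1 fell. C4b, an early component, read 8.08, 8.75, 8.66 and 9.03 on the controls and 9.99 to 11.02, median 10.79, with DSS, without overlap (2.04 ± 0.33, adjusted p = 8.60e-04). The other risers restrain the cascade: Serping1 inhibits its first protease (1.46 ± 0.33), Cd59a and Cd59b block the terminal pore (1.02 ± 0.20 and 0.88 ± 0.17, close copies), and Cd55, named after its value was seen, speeds the decay of convertases (1.40 ± 0.35). For coagulation and fibrinolysis 5 of 14 rose, led by urokinase Plau and its receptor Plaur (1.37 ± 0.12). Plau read 7.73, 7.50, 7.39 and 7.51 on the controls and 8.85 to 10.10, median 9.49, with DSS (1.95 ± 0.25), without overlap.

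Lipid mediators showed opposed changes at the making and breaking of prostaglandin E2. Ptges, a synthase for it, rose by 0.87 ± 0.21 and its receptor Ptger2 by 0.93 ± 0.16. Hpgd, the enzyme that inactivates it, read 12.66, 12.11, 12.15 and 12.15 on the controls and 11.12 to 11.70, median 11.42, with DSS, and all DSS arrays were below all controls (-0.89 ± 0.16, adjusted p = 0.00209). Ptges2, another synthase, fell (-0.50 ± 0.14), a call lost without DSS replicate 2, 4 or 5 or control replicate 1, 2 or 3 at an adjusted p of 0.0505 to 0.0838. Over the 17 measured genes of the pathway 4 rose and 2 fell. In sphingolipid and phospholipid metabolism 8 of 30 rose (4 without control replicate 3) and 2 fell (0 to 1 without DSS replicate 2, 3, 4 or 5 or control replicate 1, 3 or 4). Sphk1, the kinase that makes sphingosine 1-phosphate, read 7.84, 7.78, 7.81 and 7.81 on the controls and 9.38 to 10.53, median 9.996, with DSS (2.20 ± 0.29).

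Interferon-induced GTPases had the highest share of calls of the 145 lists. All 10 measured guanylate-binding proteins and immunity-related GTPases, of 18 on the array, rose, 8 stably, with a median difference of 1.47. These proteins attack the vacuoles of microbes inside cells. Promoters of 4 of these genes are shown because they hold the letters of an interferon-stimulated response element (ISRE), TTTCNNTTT on either strand, in capitals below, on the gene's strand from 5′ to 3′. The stretches are from RefSeq on GRCm38.p6, at chr3:142620569-142620647 (+ strand) for Gbp2, chr3:142559964-142560042 (+ strand) for Gbp3, chr3:142496734-142496812 (+ strand) for Gbp5 and chr11:58214879-58214957 (+ strand) for Irgm2.
Gbp2: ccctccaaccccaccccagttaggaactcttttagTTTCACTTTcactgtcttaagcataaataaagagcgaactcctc
Gbp3: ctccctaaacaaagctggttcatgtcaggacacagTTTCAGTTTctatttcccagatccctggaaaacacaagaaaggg
Gbp5: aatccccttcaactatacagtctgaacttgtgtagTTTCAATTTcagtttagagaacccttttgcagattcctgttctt
Irgm2: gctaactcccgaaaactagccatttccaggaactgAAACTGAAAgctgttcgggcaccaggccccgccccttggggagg
The match of Irgm2 is on the other strand. The letters occurred in 14 of the 17 genes (82.4%) that rose in this family or among the antiviral genes and had a promoter in the table, against 12.1% of all genes and 9.98% of measured ones. The GTPase genes lie in clusters of copied genes, so their promoters are not independent of each other, and the ISRE and kappaB letters were searched separately. Gbp2 read 9.10, 10.03, 10.25 and 9.95 on the controls and 11.17 to 12.63, median 11.68, with DSS (1.96 ± 0.30, adjusted p = 6.21e-04), and Gbp5 read 6.77, 6.75, 6.77 and 7.05 on the controls and 8.35 to 9.98, median 8.73, with DSS (2.05 ± 0.30). No DSS array reached down to any control for either gene.

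Of 26 measured antiviral genes (of 46), 12 rose, 9 stably, and none fell. Ifit2, which binds viral RNA, read 7.22, 7.62, 7.19 and 7.81 on the controls and 8.72 to 11.23, median 9.83, with DSS (2.43 ± 0.42). The RNA sensor Oas2 rose by 1.27 ± 0.24 and Ifitm3, which blocks viral entry, by 1.74 ± 0.31. DSS replicate 4 had the highest mean of the antiviral list, at 1.17 above the control mean, against 0.42 to 0.81 on the other 5 DSS arrays. In antigen presentation 4 of 13 genes of the immunoproteasome and of peptide loading rose and 7 were level. The peptide pumps Tap1 (0.86 ± 0.17) and Tap2 (0.73 ± 0.16), the light chain B2m (0.45 ± 0.08) and the class I activator Nlrc5 (1.18 ± 0.18) rose. The heavy chains themselves held 1 call among 11 (0 without DSS replicate 2, 3 or 4 or control replicate 2, 3 or 4), 6 were level, and their median was 0.06. These chains are near-identical copies and their probes may not be specific. For class II presentation only the protease Lgmn rose (1.55 ± 0.23) and only Ifi30 fell (-0.50 ± 0.13, lost without control replicate 3 or 4 at an adjusted p of 0.0685 to 0.0849) among 13. The mean of the class II list spread over the controls at -0.72, -0.18, 0.34 and 0.56, and none of its members was level.

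**Figure D2:**
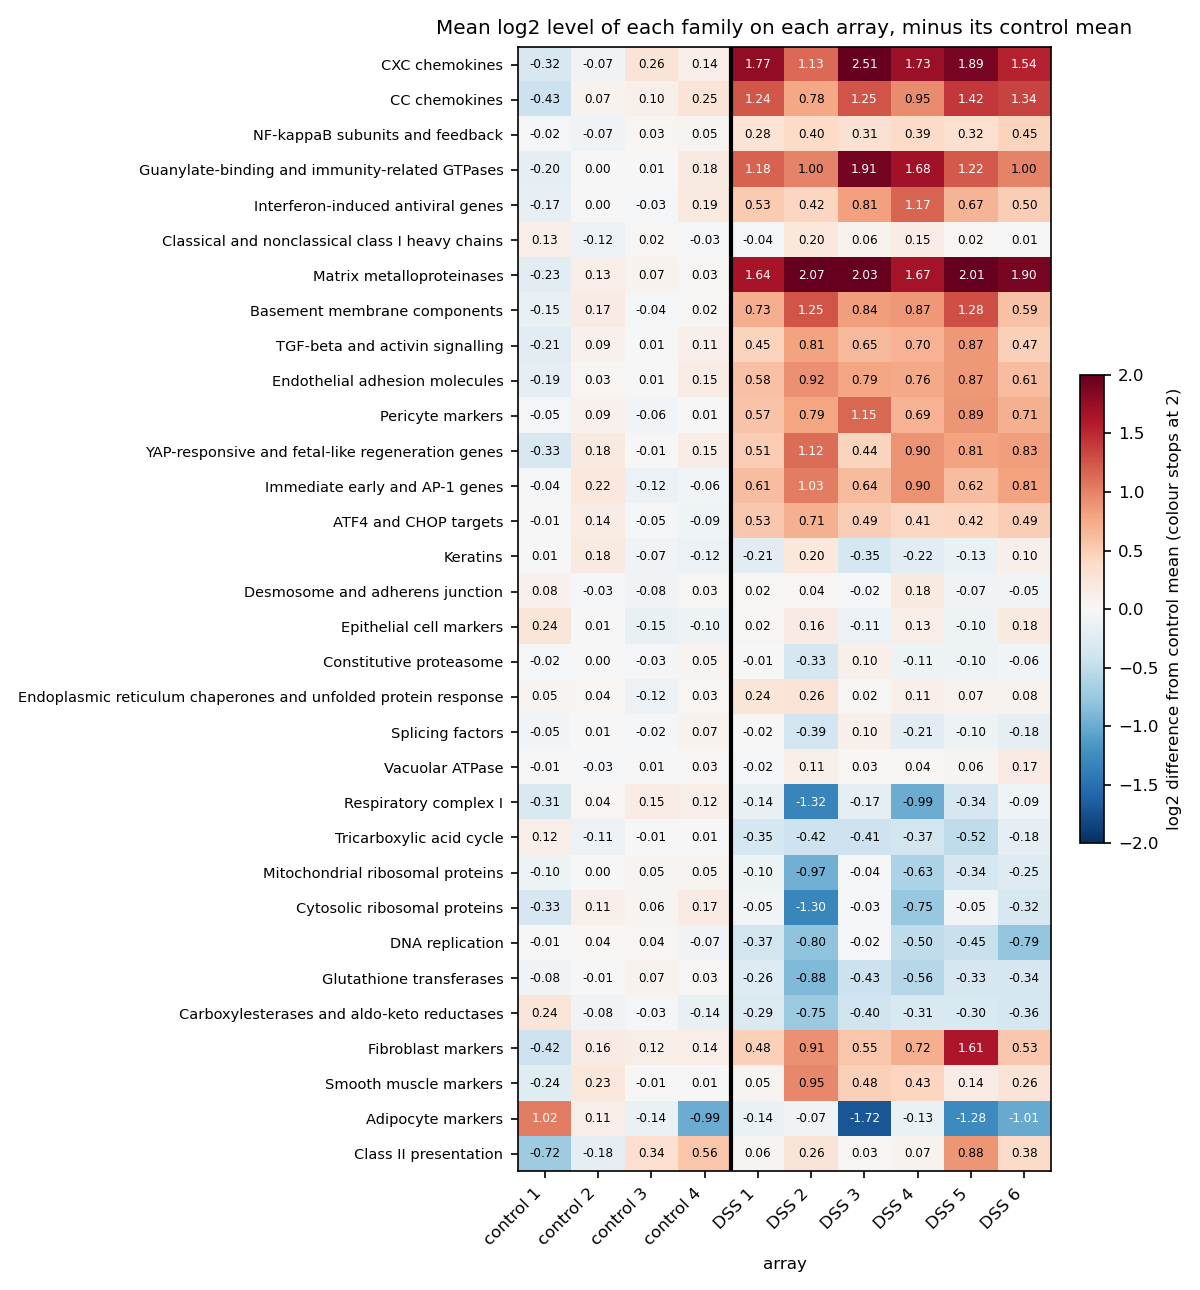
Rows are gene families and columns the 4 control and 6 DSS arrays; each cell holds the mean log2 level of the family's measured members on that array minus the mean over the 4 controls, with red above and blue below. The chemokine, guanylate-binding and metalloproteinase rows are raised on all 6 DSS arrays, the proteasome and junction rows stay pale throughout, and DSS replicates 2 and 4 stand apart in the complex I and ribosomal rows.

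Genes that cut matrix and genes that build it both rose. All 7 metalloproteinases that rose, of 12 measured, did so stably and they included the gelatinase Mmp9 (1.53 ± 0.22). Adamts4, which cuts the proteoglycans aggrecan and versican, read 6.17, 6.23, 6.25 and 6.31 on the controls and 8.74 to 9.82, median 9.07, with DSS (2.92 ± 0.24, adjusted p = 3.91e-06). Basement membrane genes rose in 12 of 20 cases, 9 stably, and all 20 had a difference above 0 (median 0.78). Col18a1, whose cleaved end is endostatin, read 10.01, 10.42, 10.36 and 10.11 on the controls and 12.20 to 13.59, median 12.83, with DSS (2.70 ± 0.29). The laminin chain Lama1 rose by 2.04 ± 0.23 and the network collagen Col4a1 by 1.60 ± 0.28. Of the enzymes that process and crosslink collagen 7 of 16 rose, but only 1 stably, with counts 1 to 4 without DSS replicate 2 or 5 or control replicate 1, 3 or 4. The stable call was the lysyl oxidase Lox, which read 6.91, 6.86, 7.08 and 6.84 on the controls and 7.82 to 10.83, median 9.03, with DSS (2.29 ± 0.41).

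Genes of the TGF-beta superfamily rose, among them both activin subunits and a pair of antagonists. Of 20 TGF-beta and activin genes 11 rose, 3 stably (3 to 7 without DSS replicate 2, 4 or 5 or control replicate 1, 2, 3 or 4). The activin subunit Inhba read 6.25, 6.80, 6.71 and 6.51 on the controls and 8.62 to 9.19, median 8.97, with DSS (2.38 ± 0.23, adjusted p = 1.36e-05), and Inhbb read 6.34, 6.48, 6.15 and 6.39 on the controls and 7.19 to 8.20, median 7.56, with DSS (1.25 ± 0.16). The groups did not overlap for either subunit. In the BMP list 5 of 16 rose (2 to 3 without control replicate 1, 3 or 4), and the stable calls, Grem1 (3.05 ± 0.60) and Chrd (1.56 ± 0.26), are both secreted BMP antagonists. Hgf, a growth factor from stromal cells that acts on epithelium, rose by 1.35 ± 0.15 and Fgf7, another of that kind, by 1.55 ± 0.29.

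Vessel genes rose at the wall cells as well as the lining. Of 13 blood endothelial markers 9 rose, and of 14 endothelial adhesion molecules 8 (5 without control replicate 1), led by Selp. This gene of P-selectin, which makes leukocytes roll along the vessel wall, read 6.63, 7.04, 6.73 and 7.17 on the controls and 8.44 to 9.55, median 9.19, with DSS (2.23 ± 0.25). Of 8 pericyte markers 5 rose (3 without control replicate 1). Kcnj8 and Abcc9 encode the pore and the regulatory subunit of 1 potassium channel of pericytes. Kcnj8 read 8.03, 7.91, 7.80 and 7.74 on the controls and 9.58 to 10.61, median 9.81, with DSS (2.08 ± 0.27), and Abcc9 read 7.54, 7.78, 7.78 and 8.11 on the controls and 9.06 to 9.91, median 9.53, with DSS (1.67 ± 0.24). Every DSS array was above every control for both subunits. Fibroblast markers rose in 5 of 14 cases (2 to 3 without control replicate 1 or 3), and DSS replicate 5 had the highest mean at 1.61 above the control mean. Smooth muscle markers were all above 0 in difference, 2 of 14 called (1 without DSS replicate 2, 4 or 5 or control replicate 2, 3 or 4), with DSS replicate 2 highest at 0.95.

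Genes that build the epithelial sheet gave calls in both directions, most of them not stable. Of 11 measured epithelial markers 6 were level, and the 2 that fell, Cldn7 (-0.31 ± 0.09) and Cldn3 (-0.32 ± 0.10), did so by under 0.5 log2 units and not stably. The call of Cldn7 was lost without DSS replicate 2, 4, 5 or 6 or control replicate 1, 2, 3 or 4 at an adjusted p of 0.057 to 0.114 and that of Cldn3 without DSS replicate 1, 2, 3, 4 or 5 or control replicate 1, 2 or 3 at an adjusted p of 0.0569 to 0.145. The mean of these markers per array was -0.15 to 0.24 from the control mean over all 10 arrays. None of 13 measured keratins (of 47) was called and 5 were level. None of 10 desmosome and adherens junction genes was called and 7 were level. Among 21 tight junction genes Cldn4 rose (1.23 ± 0.32), a call lost without control replicate 3 or 4 at an adjusted p of 0.0666 to 0.0765. In the same list 3 fell (1 without DSS replicate 2, 4 or 5 or control replicate 1, 2 or 3). They were Cldn7 and Cldn3 again and the polarity protein Pard6a (-0.42 ± 0.07), the stable one. Integrins, which hold cells to matrix, did rise: 6 of 17, with Itgav (1.03 ± 0.18), Itgb6 (0.89 ± 0.19) and Itga3 (0.56 ± 0.12) all without overlap.

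Signals that steer epithelial renewal moved in opposite ways. Lgr5, a marker of crypt base stem cells and a receptor for R-spondins, read 7.70, 8.18, 7.49 and 7.77 on the controls and 5.97 to 6.86, median 6.23, with DSS (-1.44 ± 0.26, adjusted p = 0.00251), and the Wnt target Axin2 fell (-1.26 ± 0.31). Rspo3, a stromal ligand of Lgr5, rose by 1.60 ± 0.39, a call lost without control replicate 1 at an adjusted p of 0.0526, and the Wnt inhibitor Sfrp1 rose by 1.42 ± 0.33. Lgr5 was dim, and without any 1 of the controls it fell below the intensity filter and was not tested. The other 11 of the 15 measured genes of the list were not called. Of 12 EGF receptor ligands and receptors 4 rose. Nrg1, a ligand made by stromal cells, read 6.97, 7.18, 6.31 and 6.64 on the controls and 8.75 to 10.13, median 9.34, with DSS (2.61 ± 0.31, adjusted p = 7.97e-05). The ligand Epgn read 7.50, 6.64, 6.50 and 6.46 on the controls and 8.04 to 8.59, median 8.29, with DSS (1.54 ± 0.24), and the receptor Egfr rose by 0.76 ± 0.11. No DSS array overlapped the controls for any of these 3 genes. Of 16 genes of the YAP response and the fetal-like repair state 8 rose (4 without control replicate 3), including the coactivators Yap1 (0.38 ± 0.08) and Wwtr1 (0.65 ± 0.15) themselves.

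Genes of transport, mucus and colonocyte function were called in both directions, in whole colon and not in colonocytes alone. Among 27 measured genes of electrolyte transport 1 fell (0 to 2 without DSS replicate 4, 5 or 6 or control replicate 1, 2, 3 or 4) and 1 rose (2 without DSS replicate 1). Their median of -0.28 was not stable: it went from -0.16 without DSS replicate 1 to -0.45 without DSS replicate 6, and to -0.51 without DSS replicates 2 and 4. The family mean spread over the controls from -0.49 to 0.37 around their mean, a range that held 4 of the 6 DSS arrays. Kcnq1, a potassium channel that drives chloride secretion, read 8.59, 8.65, 8.27 and 8.48 on the controls and 6.50 to 8.07, median 7.43, with DSS (-1.11 ± 0.33), with no overlap, yet its call was lost without DSS replicate 2, 4, 5 or 6 or control replicate 1, 2, 3 or 4 at an adjusted p of 0.057 to 0.0849. Nedd4l, a ubiquitin ligase that withdraws sodium channels from the membrane, rose by 0.94 ± 0.16. Vdr, the vitamin D receptor, read 12.23, 11.73, 12.03 and 11.80 on the controls and 10.92 to 11.45, median 11.12, with DSS (-0.82 ± 0.18, adjusted p = 0.00778), all DSS arrays below all controls. Of 16 genes of the mucus list 4 rose (2 without DSS replicate 4 or control replicate 3 or 4), among them Clca4a (2.24 ± 0.51), and none fell. Of 27 carriers for small nutrients 4 rose, all stably, and 3 fell (1 without control replicate 1): Slc15a3, a lysosomal peptide transporter, rose by 1.98 ± 0.27 while the vitamin carrier Slc5a6 fell (-1.04 ± 0.23) and so did Slc16a9 (-1.23 ± 0.31), a call lost without control replicate 1 at an adjusted p of 0.053. Of 25 amino acid transporters 12 were level and 2 rose, neither stably (0 to 1 without DSS replicate 1, 2, 3, 4 or 5 or control replicate 3 or 4).

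**Figure D3:**
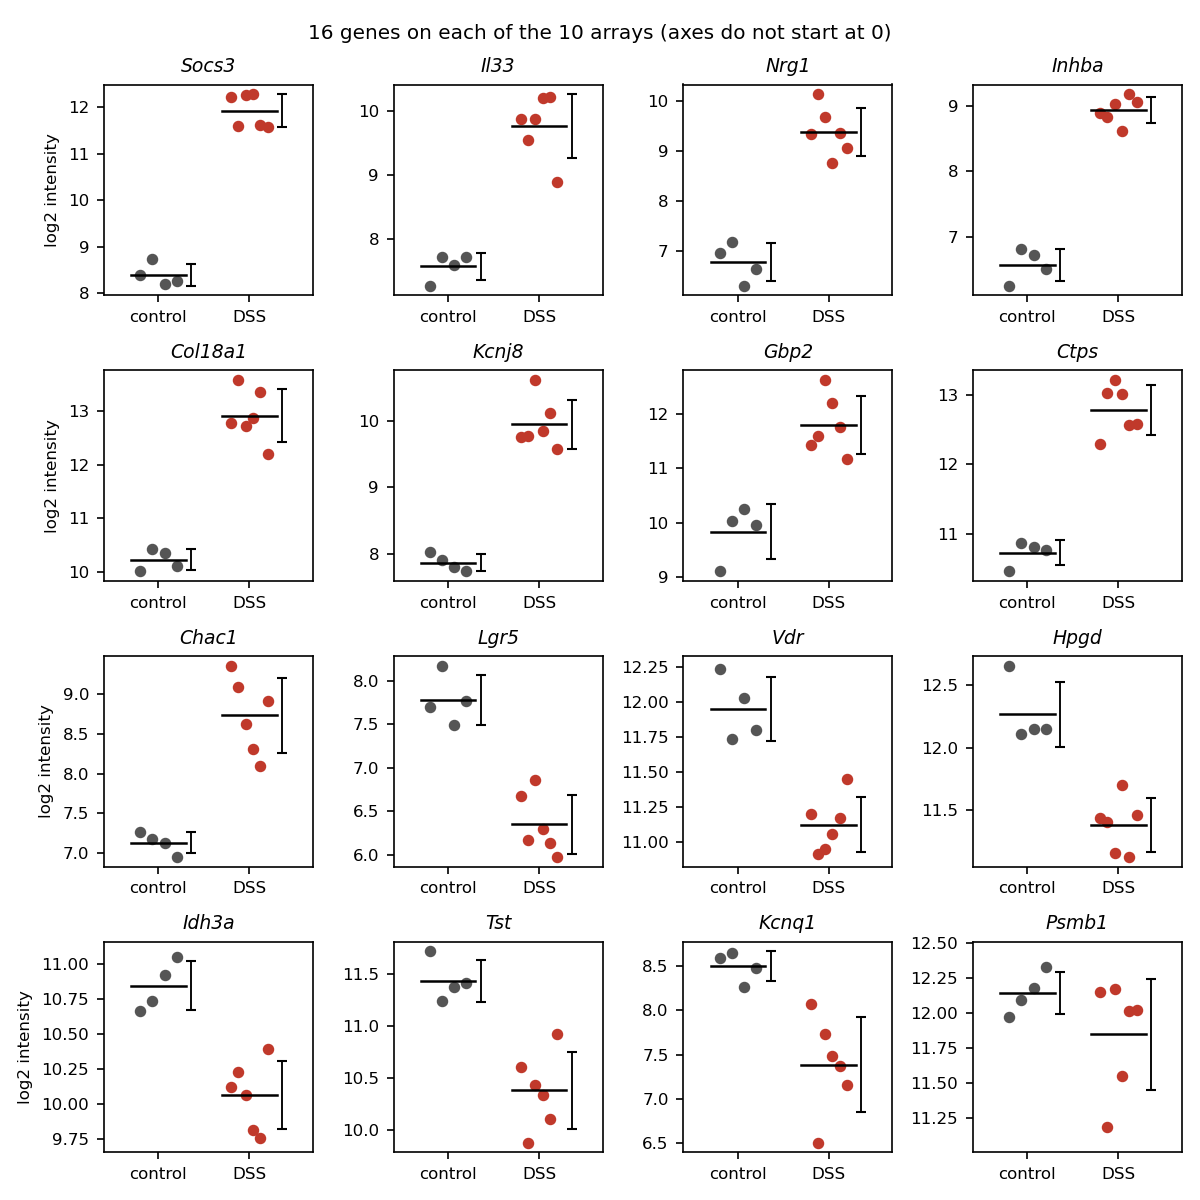
Each panel is 1 gene, with log2 intensity on the vertical axis, 4 control arrays in grey and 6 DSS arrays in red; the line is the group mean and the bar beside it 1 SD. In 15 panels the groups do not overlap, whether the gene rose (Socs3 to Chac1) or fell (Lgr5 to Kcnq1), and in the last, the proteasome subunit Psmb1, they overlap.

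Mitochondrial families lay below 0, with 2 arrays far lower than the rest. All 32 measured subunits and assembly genes of complex I had a difference below 0 (median -0.50), and 8 fell, 1 of them stably (2 to 5 without DSS replicate 2, 4 or 5 or control replicate 1, 2, 3 or 4). The family mean was -1.32 and -0.99 from the control mean on DSS replicates 2 and 4, and -0.34 to -0.09 on the other 4 DSS arrays, where it overlapped control replicate 1 at -0.31. Without replicates 2 and 4 the median was -0.16, with 16 genes level and 3 lower. The mitochondrial ribosomal proteins, 71 measured and all below 0, went from a median of -0.40 and 6 falls to -0.20 and 0 without those 2 arrays, and the count was 2 to 12 without DSS replicate 1, 2 or 4 or control replicate 1, 3 or 4. The 57 cytosolic ribosomal proteins went from -0.49 and 3 falls to -0.11 and 1 (a median of -0.26 without DSS replicate 2 alone), with counts 1 to 5 without DSS replicate 1, 2, 3, 4 or 6 or control replicate 2, 3 or 4. Over all features 523 genes rose and 277 fell without the 2 arrays, and the median stayed at -0.04.

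The citric acid cycle was low on all 6 DSS arrays. Of 25 measured genes 11 fell, 2 stably (2 to 6 without DSS replicate 2, 4 or 5 or control replicate 1, 2, 3 or 4). The family mean was between -0.52 and -0.18 on the 6 DSS arrays, and the median moved from -0.38 to -0.40 without replicates 2 and 4, while the falls went from 11 to 3. Idh3a, a subunit of the isocitrate dehydrogenase of the cycle, read 10.66, 10.74, 10.92 and 11.05 on the controls and 9.76 to 10.39, median 10.09, with DSS (-0.78 ± 0.14, adjusted p = 0.00168), with no overlap, and without those 2 arrays its difference was -0.76 (adjusted p = 0.0077). Ppargc1a, a coactivator that promotes mitochondrial genes, fell (-1.04 ± 0.28), a call lost without control replicate 3 or 4 at an adjusted p of 0.0535 to 0.0788. Among 28 genes of fatty acid oxidation and ketogenesis 5 fell (2 to 3 without control replicate 1, 3 or 4), with the ketone enzyme Bdh1 at -0.62 ± 0.14, and 1 rose (0 without DSS replicate 2 or 4 or control replicate 2, 3 or 4). Glycolysis showed 3 rises and 1 fall (0 to 2 without DSS replicate 3, 4, 5 or 6 or control replicate 1, 2, 3 or 4) among 25 genes, led by the hexokinase Hk2 (1.38 ± 0.19), and 11 were level. The letters GCGCANGCG, which the nuclear respiratory factor NRF1 binds, were in 19 of 92 promoters (20.7%) of complex I and mitochondrial ribosomal genes, out of 103 measured, against 14.8% of all measured genes.

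**Figure D4:**
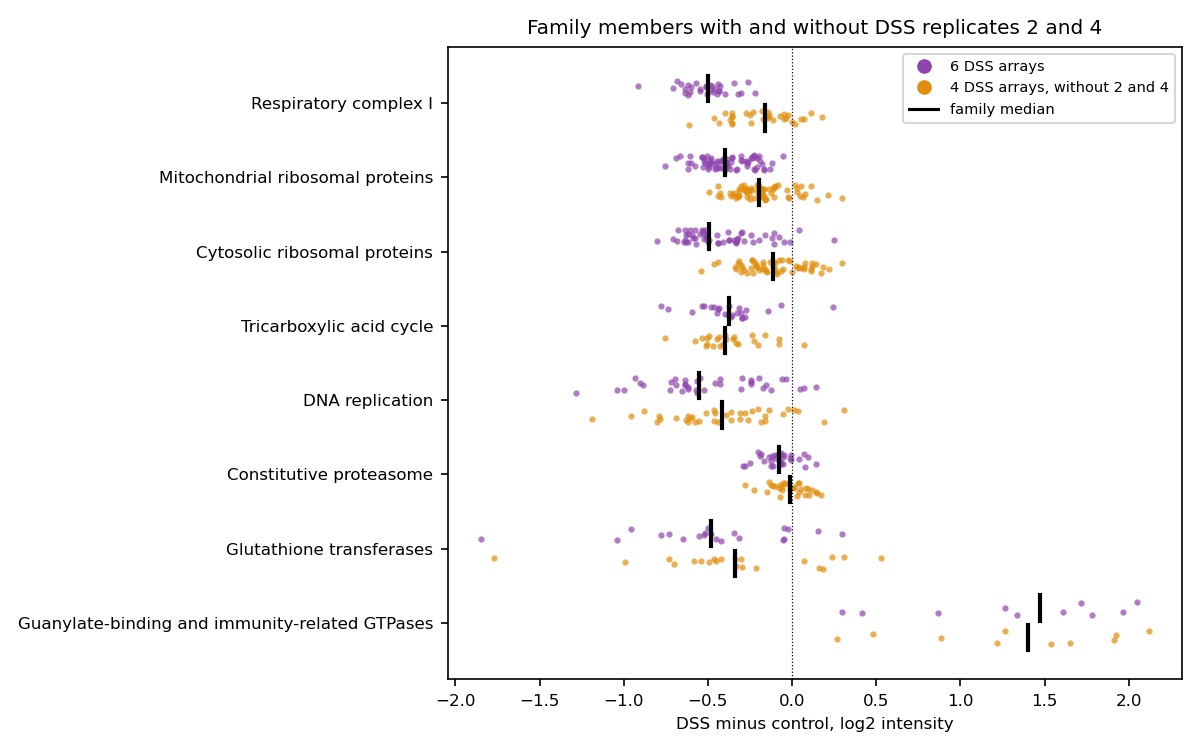
Points are the log2 differences between DSS and control of each measured member of 8 families, in purple with all 6 DSS arrays and in orange without DSS replicates 2 and 4; black bars are medians. The medians of the complex I and ribosomal families shift toward 0 without the 2 arrays, whereas those of the citric acid cycle and the guanylate-binding family hardly shift.

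Detoxification enzymes fell in several of their families. Of 21 measured glutathione transferases 9 fell, 4 stably, and none rose. Gstm1 read 11.16, 11.85, 11.91 and 12.08 on the controls and 10.58 to 10.87, median 10.68, with DSS (-1.04 ± 0.17, adjusted p = 9.15e-04). Gstp1 and Gstp2 are close copies and their probes may not be specific. Of 19 carboxylesterases and aldo-keto or carbonyl reductases 6 fell, 1 stably (2 to 3 without DSS replicate 4 or control replicate 1 or 4). Without both DSS replicates 2 and 4 the count was 1. The stable call was Ces1g (-1.27 ± 0.29). Both UDP-glucuronosyltransferases called, of 5 measured, fell (1 without DSS replicate 2, 3 or 5 or control replicate 1, 3 or 4). In the sulfur branch Tst, which detoxifies cyanide and handles sulfide, read 11.71, 11.23, 11.37 and 11.41 on the controls and 9.87 to 10.92, median 10.38, with DSS (-1.06 ± 0.18). Papss1, which makes the sulfate donor for sulfotransferases, fell (-0.76 ± 0.12), and Csad, an enzyme of taurine synthesis, fell as well (-0.78 ± 0.17).

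Some enzymes of these same families rose. Among 26 cytochrome P450 genes 4 fell, such as Cyp2s1 (-1.05 ± 0.18), but Cyp7b1, which hydroxylates oxysterols, read 7.36, 7.23, 7.54 and 7.58 on the controls and 8.65 to 9.60, median 9.04, with DSS (1.65 ± 0.23). Among 37 aldehyde and retinol dehydrogenases 8 fell (4 to 5 without DSS replicate 5 or control replicate 2, 3 or 4) and 4 rose (2 without control replicate 4). Aldh1a7 was among the falls (-1.19 ± 0.24), and the retinol dehydrogenase Dhrs9 (1.46 ± 0.25) and the mitochondrial folate enzyme Aldh1l2 (1.30 ± 0.18) among the rises. For lipid synthesis the regulator Srebf1 fell (-0.70 ± 0.11) with Scd2, a desaturase (-1.13 ± 0.23), and Acsl3 (-0.78 ± 0.17). Acsl4, an acyl-CoA synthetase that prefers arachidonate, rose by 0.67 ± 0.11, and of 29 genes 5 fell (3 without control replicate 1 or 3) and 9 were level. Cholesterol synthesis held 3 falls among 21 genes (1 without control replicate 1 or 3).

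Nucleotide synthesis genes moved both ways: of 33 measured, 4 rose (2 without DSS replicate 2, 3, 4 or 5 or control replicate 1, 2 or 3) and 5 fell (3 without DSS replicate 2 or 4 or control replicate 2 or 3). Ctps, the enzyme that makes CTP from UTP, read 10.47, 10.88, 10.82 and 10.78 on the controls and 12.29 to 13.21, median 12.79, with DSS (2.04 ± 0.24, adjusted p = 7.97e-05). Its paralog Ctps2 read 7.65, 7.85, 7.88 and 7.78 on the controls and 7.17 to 7.54, median 7.44, with DSS (-0.39 ± 0.09), and Dhodh, which makes orotate upstream, fell (-0.62 ± 0.12). The groups did not overlap for either synthase. Genes driven by the stress factors ATF4 and CHOP rose in 8 of 21 cases, 6 stably. Chac1, which breaks down glutathione, read 7.27, 7.18, 7.13 and 6.95 on the controls and 8.10 to 9.36, median 8.77, with DSS (1.60 ± 0.23). The transcription factor Cebpb rose by 1.79 ± 0.17 and Ppp1r15a, which restarts translation, by 0.79 ± 0.14. The chaperones and sensors of the endoplasmic reticulum held no call: of 22 measured, 15 were level, the most displaced being Eif2ak3 (0.50 ± 0.17). Their list mean was 10.73 to 10.97 on the DSS arrays and 10.58 to 10.76 on the controls, so a small rise is not excluded.

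Families that keep every cell running were mostly level. None of 31 constitutive proteasome subunits was called and 27 were level (median -0.08). The most displaced, Psmb1, read 11.97, 12.09, 12.18 and 12.33 on the controls and 11.19 to 12.17, median 12.02, with DSS, with overlap. None of 18 vacuolar ATPase subunits was called and 14 were level. None of 60 splicing factors was called and 37 were level, as were 13 of 21 nuclear pore genes, again without a call. Without DSS replicates 2 and 4, 47 splicing factors, 29 proteasome subunits and 13 nuclear pore genes were level. At an unadjusted p under 0.05 the limma fit passed 1 proteasome, 2 vacuolar ATPase, 2 splicing, 1 nuclear pore, 8 endoplasmic reticulum, 3 keratin and 2 junction genes. Over all 9770 features, 3070 passed at that threshold. For calls, no alternative fit gave more than 1 in the proteasome list. Among 178 zinc finger proteins 146 were level, 4 rose and 11 fell (3 to 7 without DSS replicate 4 or 5 or control replicate 2, 3 or 4), with the RNA-binding Zfp36, which destabilises cytokine transcripts, among the rises (0.87 ± 0.17).

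Some members moved in families with few calls. Ube2l6, the conjugating enzyme for the ubiquitin-like ISG15, rose by 0.67 ± 0.09 while 15 of 18 ubiquitin-conjugating enzymes were level. Usp18, which removes ISG15, rose by 1.50 ± 0.34 while 27 of 36 ubiquitin-specific proteases were level. No other member of either family was called. Wars, the tryptophan tRNA synthetase and an interferon-induced gene, rose by 0.66 ± 0.14 against a median of -0.20 in its family, in which 2 of 28 fell (1 without DSS replicate 2 or 5 or control replicate 2, 3 or 4). In vesicle traffic 4 of 44 Rab GTPases rose, beside 8.68% of all features, among them Rab31 (1.30 ± 0.28) and Rab8b (1.08 ± 0.19). Among 56 sorting genes 3 rose, Snx10 (0.75 ± 0.13) among them, 1 fell, Snx15 (-0.81 ± 0.11), and 43 were level. Capg, which caps actin filaments in macrophages and other motile cells, read 8.52, 8.91, 8.23 and 8.07 on the controls and 10.31 to 10.89, median 10.58, with DSS (2.18 ± 0.19).

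Immediate early genes, which cells switch on soon after a stimulus, rose in 11 of 21 cases, 8 stably. Junb, an AP-1 subunit, read 9.17, 9.37, 8.89 and 9.22 on the controls and 10.36 to 10.86, median 10.57, with DSS (1.45 ± 0.17, adjusted p = 9.13e-05), and Ier3, which limits cell death, read 9.65, 10.05, 9.46 and 9.60 on the controls and 11.20 to 12.09, median 11.31, with DSS (1.79 ± 0.20). The groups did not overlap for either. Among 16 clock genes the repressor Nfil3 rose by 1.80 ± 0.29, and the labels do not state at what hours the colons were taken. None of 19 Hox genes was called and 3 were level.

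Division genes gave an unstable picture. Of 38 measured replication genes 10 fell, none stably, with counts 0 to 17 without DSS replicate 2, 3, 4, 5 or 6 or control replicate 1, 2, 3 or 4, and the median of -0.56 went to -0.42 with 0 falls without DSS replicates 2 and 4. Pcna, the replication clamp, read 7.999, 7.85, 8.23 and 8.15 on the controls and 7.07 to 7.60, median 7.51, with DSS (-0.64 ± 0.17), and its call was lost without control replicate 3 or 4 at an adjusted p of 0.0557 to 0.0682. The family mean on the DSS arrays ran from -0.80 on replicate 2 to -0.02 on replicate 3. None of 28 mitosis and cell cycle genes was called, and 6 were level. An unadjusted limma p under 0.05 was found for 4 of them, beside 3070 of all 9770 features.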

How the data were processed

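Total RNA of whole colon was labelled as biotinylated cRNA for Illumina arrays, per the labels' protocols. The deposited values are the authors' probe intensities on a linear scale, 42.02 to 41634 over the 16 arrays, with array medians of 112.012 to 112.22. How the authors processed and normalized them is not given in the sources used here. Log2 was taken without further normalization. Of 25697 probes, 23978 had 1 gene symbol in the platform annotation, 1719 had none and 0 had several. The brighter 50% of probes by mean log2 were kept (12848, from 6.82 upward), and the brightest kept probe of each gene was used, which left 9770 features, 9056 of them named. More than 1 probe was kept for 2250 genes. Because most arrays are from colitis, the intensity filter passes more easily a gene that is high with DSS. The un-normalized table was not used here, since its 32 array columns could be given to no sample.

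The 16 arrays took their groups from the treatment named in each title and were fitted with 1 mean per group in limma 3.58.1 (R 4.3.3). The contrast was DSS minus control, with 2-sided moderated tests and Benjamini-Hochberg adjustment over all features. A gene was called at an adjusted p under 0.05, and was level where the 95% confidence interval of its difference, not adjusted over genes, lay within ±0.5. In data simulated with the spread of each gene, 31% of genes changed by 0.5 log2 units and 85% of those changed by 1 were found. Of 127 calls there, 11 were false. The simulation changed 200 of 9770 features and drew the noise of each gene independently. Its rates may therefore differ from those of the real comparison. P-values measure the spread between samples, which may be technical, as the labels do not say that each is a separate animal. The number of arrays limits the precision.

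The gene lists, and the decision to describe this contrast, were chosen with earlier results of these data known. Lists therefore have counts and medians but no test. Named genes are, per list, up to 4 called members with the smallest p and up to 2 against the list's majority, the most displaced member where none was called, and the 15 largest rises and falls overall. Promoters came from RefSeq's table of GRCm38.p6 and were searched on both strands for 9-letter core motifs, chosen with the called genes known. Alternatives were other normalizations, background corrections, intensity filters, probe summaries, variance priors, array weights, blocks, the 10 arrays alone, and each array left out. A smaller normexp offset of 16 and leaving out both DSS replicates 2 and 4 were added after seeing the data. Whether same-numbered arrays pair was checked by the correlation of their deviations from the group means, which was 0.37, 0.13, -0.11 and -0.07 for numbers 1 to 4, so the numbers were not taken to pair the arrays.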

Additional observations from a re-analysis of the deposited data

Results flagged for a closer look

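Over 150 genes and 81 family means, 462 groups were tested for an array whose gap to its nearest neighbour took up too much of the group's range by Dixon's criterion. This found 29 such values (6.28%), and chance gives about 1 in 20. Control replicate 1 accounted for 7 of them, control replicate 2 and DSS replicate 6 for 5 each, and DSS replicate 4 for 0.

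In log2 intensity, control replicate 1 was lowest for Serping1 at 9.70 (next 10.84), for Ifitm3 at 10.66 (next 11.66) and for Cxcl5 at 5.73 (next 5.78). It was highest for Hpgd at 12.66 (next 12.15) and for Selenbp1 at 14.64 (next 14.07). Control replicate 2 was highest for Ptger2 at 7.42 (next 6.91), Aldh1l2 at 6.92 (next 6.60), Wwtr1 at 7.31 (next 7.02) and Cldn7 at 10.48 (next 10.32), and lowest for Snx10 at 9.34 (next 9.42). Control replicate 4 was highest for Ppargc1a at 9.59 (next 9.11) and Gbp5 at 7.05 (next 6.77).

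On the DSS side, replicate 6 was lowest for Ackr1 at 8.11 (next 8.94), Lgmn at 10.67 (next 11.34) and Tgm2 at 12.58 (next 13.34). The same array was highest for Ppp1r15a at 8.49 (next 8.31) and for Selenbp2 at 11.47 (next 10.15). Replicate 3 was highest for Ptges at 8.83 (next 8.02), and replicate 2 for Ch25h at 10.42 (next 9.67).

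Family means stood apart as follows, each as the difference from the control mean. With DSS, replicate 5 was highest in Fc receptors (1.35, next 0.79) and chemokine receptors (0.78, next 0.37). Replicate 2 was highest in the ligands and receptors of the EGF family (0.94, next 0.54) and lowest in carboxylesterases and aldo-keto reductases (-0.75, next -0.40). Replicate 1 was lowest in TNF receptors (0.29, next 0.45) and replicate 3 in the interleukin 10, 17 and 22 axes (-0.20, next -0.05). Among the controls, replicate 1 was lowest in fibroblast markers (-0.42, next 0.12) and highest in carriers for small nutrients (0.07, next -0.02), and replicate 3 was lowest in endoplasmic reticulum chaperones (-0.12, next 0.03) and Rab GTPases (-0.02, next 0.01).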

How the results depend on the processing

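No call changed direction under any of the 22 alternatives that tested it. Calls were lost mainly when arrays were left out: the total ran from 797 to 1480 over the fits without 1 array (535 to 881 higher, 262 to 599 lower), lowest without control replicate 3 (797) and control replicate 4 (888), and 800 (523 higher, 277 lower) without both DSS replicates 2 and 4, a fit that kept 749 of 1417 calls tested in it. Of 148 called genes given with values in the text, 136 were called in all 10 fits without 1 array that kept them. Array weights gave 2577 calls, 1280 higher and 1297 lower, so that 49.7% of calls were higher against 59.6% in the fit as reported. The upper 25% of probes gave 844 calls (493 higher, 351 lower) and 2427 level genes against 4783, out of fewer features, and no filter gave 1356 calls and 12907 level genes out of more. The other scalings and corrections, the mean of probes, the robust prior, the 10 arrays alone and the accession-order block gave 1318 to 1608 calls. With the replicate number as a block there were 1672 calls (975 higher, 697 lower); the arrays share only the number, and the cause was not tested. The median of all features lay between -0.05 and -0.02 throughout. Dim genes have compressed fold changes because no intensity was below 42.02, and a gene under the filter has no test here. The precision of 4 and 6 arrays leaves many genes neither called nor level, and no array slide is known for any sample, so none was tested as a batch.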

Other observations

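Several of the larger changes lay in genes that none of the gene lists held. Apart from Tac1 and Dio1, the genes here were chosen after their values were seen. Mfsd2a, a membrane carrier of lysophospholipids, read 7.82, 8.01, 7.36 and 7.33 on the controls and 9.88 to 11.37, median 10.45, with DSS (2.91 ± 0.32, SE, limma adjusted p = 4.30e-05). Igfbp5, which binds insulin-like growth factors outside the cell, read 10.57, 11.41, 10.83 and 11.46 on the controls and 13.41 to 14.28, median 13.95, with DSS (2.83 ± 0.33), and its relative Igfbp4 rose by 2.08 ± 0.25. The groups did not overlap for these 3 genes. Ch25h makes 25-hydroxycholesterol, an oxysterol that the Cyp7b1 enzyme of the cytochrome list takes further. It read 7.13, 7.47, 7.57 and 7.66 on the controls and 9.31 to 10.42, median 9.65, with DSS (2.23 ± 0.26, adjusted p = 6.50e-05), again without overlap. Tacr1, the receptor of substance P, read 6.80, 7.01, 6.86 and 6.99 on the controls and 8.26 to 9.10, median 8.78, with DSS (1.82 ± 0.20), and Tac1, the gene of substance P itself, rose by 1.55 ± 0.35. The endothelin receptor Ednrb rose by 1.48 ± 0.23.

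Cd274 encodes PD-L1, a surface ligand that restrains T cells. It read 8.01, 7.79, 8.14 and 7.90 on the controls and 8.81 to 9.99, median 9.36, with DSS, and no DSS array reached any control (1.48 ± 0.23, adjusted p = 6.38e-04). Gch1, the first enzyme of tetrahydrobiopterin synthesis, rose by 1.35 ± 0.17, the protein crosslinker Tgm2 by 1.35 ± 0.21 and Ptk6, a tyrosine kinase of epithelium, by 1.66 ± 0.22. Among the falls, Acss2, which turns acetate into acetyl-CoA, read 11.57, 11.76, 12.04 and 12.19 on the controls and 10.35 to 11.09, median 10.73, with DSS (-1.16 ± 0.16), with no overlap. Selenbp1, an enzyme that oxidises methanethiol, read 14.64, 14.01, 14.07 and 14.03 on the controls and 12.46 to 14.06, median 12.85, with DSS (-1.19 ± 0.24), and its close copy Selenbp2 fell too (-1.31 ± 0.27). Their groups overlapped, and the probes of such copies may not be specific. Dio1, which activates thyroid hormone, fell (-1.39 ± 0.36), a call lost without control replicate 1 or 3 at an adjusted p of 0.0535 to 0.0567.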
